A study of Saccharomyces cerevisiae with 2 samples.

Results

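The small subunit processome is the large assembly of proteins and U3 small nucleolar RNA that forms on nascent ribosomal RNA in the nucleolus. RNA levels and ribosome footprints of 40 genes for its proteins were examined here. The genes were taken by name, from a list of systematic identifiers that sets no threshold on a measured value, drawn up with earlier results of these data known. They comprise the UTP family (named for the U3 RNA), the box C/D core genes NOP1, NOP56, NOP58 and SNU13, the Mpp10 complex and further assembly factors of the 40S subunit. All 40 were among the 4685 genes of the deposited table. The study measured steady-state mRNA and ribosome-protected fragments in Saccharomyces cerevisiae in order to describe what sets ribosome density in yeast. BY4741, a haploid laboratory strain derived from S288C, was grown in YPD, a rich glucose medium, to mid-log phase. There was 1 RNA library, from cytoplasmically enriched RNA depleted of ribosomal RNA, and 1 footprint library, and both came from the same strain and medium with no treatment. With 1 library per assay there is no replicate error, no difference between genes can be tested, and all values below describe these 2 libraries.

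In yeast the processome cleaves and folds the precursor of the small subunit ribosomal RNA. Its parts join largely as preformed subcomplexes. UtpA binds the start of the transcript, UtpB and the U3 snoRNP follow, and the Mpp10 complex holds the duplex between U3 and the pre-rRNA. Helicases, a GTPase and methyltransferases then drive the particle toward the pre-40S subunit. Ribosome biogenesis genes as a class are known for 2 promoter elements, the PAC element with the core GATGAG, bound by the Myb-family factors Dot6 and Tod6, and the RRPE element with the core AAAAATTT, bound by Stb3.

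The authors deposited RPKM (reads per kilobase of gene, scaled to library depth) for each gene and assay. RPKM is a level per length and was compared between genes on that scale, although the ratio of footprints to RNA still went with coding length (below). The values were found to be whole reads when the coding length less 50 nt was used as the length. The total behind RPKM was then 7368000 RNA reads and 48513600 footprint reads. In all, 4149 RNA values and 372 footprint values were precise enough to judge. Of these, 98.8% and 99.7% came within 0.1 read of a whole number beyond their rounding, against 29.05% and 34.1% for random values. The depth and the bases left out were themselves chosen for nearness to whole numbers, on the values with the least rounding. Those values overlap with the ones judged, and the shares for random values take no account of that search. The members had 219 (IMP3) to 11590 (RRP5) RNA reads and 1612 (UTP30) to 53164 (RRP5) footprint reads. Intervals given below are 95% intervals from these reads (exact Poisson for a level, Clopper-Pearson for a ratio), and they cover counting error only, since reads are not independent molecules. Ribosome density is log2 of footprint RPKM over RNA RPKM, set to 0 at the median of 4641 analysed genes, for which the ratio was 0.821. A density of 1 is therefore a footprint to RNA ratio 2 times that of the median gene. As a check on the strain, LEU2, URA3 and MET17, which BY4741 lacks, were not in the table. The MATa-specific receptor gene STE2 had 435 RPKM of RNA.

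Most of the 40 genes carry both promoter elements. In the 250 bases before the start codon, with both strands searched, GATGAG occurred in 35 of 40 members, against 17% of 6002 nuclear protein-coding genes. AAAAATTT occurred in 33 of 40, against 13.4%. Both occurred in 30 of 40, against 4.98% of all genes, so that 30 of the 299 genes with both were members. The 2 motifs share no overlap by construction of their letters, although a motif may overlap its own copy on either strand. All 4 box C/D core genes had both, as did 5 of 7 UtpA, 5 of 6 UtpB, 2 of 3 Mpp10 complex, 5 of 8 other UTP and 9 of 11 other assembly factor genes. With the longer forms GC before GATGAG and TG before AAAAATTT, 8 of 40 had both, against 1.05% of all genes, and none of the 4 box C/D core genes did. UTP22 and EMG1 had neither core in this window. RRP9, MPP10, UTP7, UTP13 and ECM16 had GATGAG only, and UTP4, UTP15 and UTP30 had AAAAATTT only.

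The elements mostly lay close together. In the 30 genes with both, the nearest copies were separated by a median of 9 bases (3 to 46), and by 20 or fewer in 26 genes (86.7%). AAAAATTT was the farther from the start codon in 24 of the 30 (80%). The nearest GATGAG began a median of 113.5 bases before the start codon and the nearest AAAAATTT 129.5 bases. Among the 269 other genes with both motifs, the median separation was 13 bases, 59.9% had 20 or fewer, and AAAAATTT was the farther in 60.6%. These 269 are not free of related genes, since they include 25 further 40S assembly factors and the 4 box H/ACA core genes described below. Of 50 GATGAG copies in the members, 38 were on the strand of the gene, against 50.7% of 1151 copies in all other promoters. In the members 49 began between 60 and 220 bases upstream, limits chosen after the positions were seen, against 79.1% of copies in the other promoters. The windows below span the nearest pair with 12 bases on either side, read from the R64 genome 5′ to 3′ on the strand of the gene. The motifs of that pair are in capitals (CTCATC and AAATTTTT are the same motifs on the opposite strand). Further copies within a window, as in RRP5, PWP2 and UTP21, are not marked. The first 4 are the box C/D core, the most abundant members. UTP10, UTP20 and RRP5 are the longest, and PWP2, UTP21, IMP3 and IMP4 stand for UtpB and the Mpp10 complex.
NOP1: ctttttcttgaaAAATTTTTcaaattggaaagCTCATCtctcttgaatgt
NOP56: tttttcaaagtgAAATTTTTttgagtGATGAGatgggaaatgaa
NOP58: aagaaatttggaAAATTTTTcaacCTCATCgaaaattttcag
SNU13: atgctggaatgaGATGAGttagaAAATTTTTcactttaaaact
UTP10: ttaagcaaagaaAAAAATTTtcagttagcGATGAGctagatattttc
UTP20: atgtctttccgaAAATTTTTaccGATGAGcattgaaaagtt
RRP5: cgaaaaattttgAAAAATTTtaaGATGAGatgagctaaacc
PWP2: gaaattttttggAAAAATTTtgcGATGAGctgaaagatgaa
UTP21: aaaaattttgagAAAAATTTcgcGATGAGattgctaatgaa
IMP3: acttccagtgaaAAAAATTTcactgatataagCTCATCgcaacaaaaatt
IMP4: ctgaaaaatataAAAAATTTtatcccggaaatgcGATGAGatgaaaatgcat

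These windows lie at chrIV:427128-427177 (NOP1, plus strand), chrXII:545944-545987 (NOP56, plus), chrXV:898465-898506 (NOP58, minus), chrV:101738-101780 (SNU13, plus), chrX:217392-217438 (UTP10, minus), chrII:227441-227481 (UTP20, plus), chrXIII:731262-731302 (RRP5, minus), chrIII:223355-223395 (PWP2, minus), chrXII:937327-937367 (UTP21, minus), chrVIII:393420-393469 (IMP3, plus) and chrXIV:485447-485498 (IMP4, plus). In the marked pair UTP20, RRP5, PWP2 and UTP21 show the same layout, with AAAAATTT or its reverse ending 3 bases before GATGAG. A match of letters is a description of the sequence, and binding at these places was not measured.

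**Figure D1:**
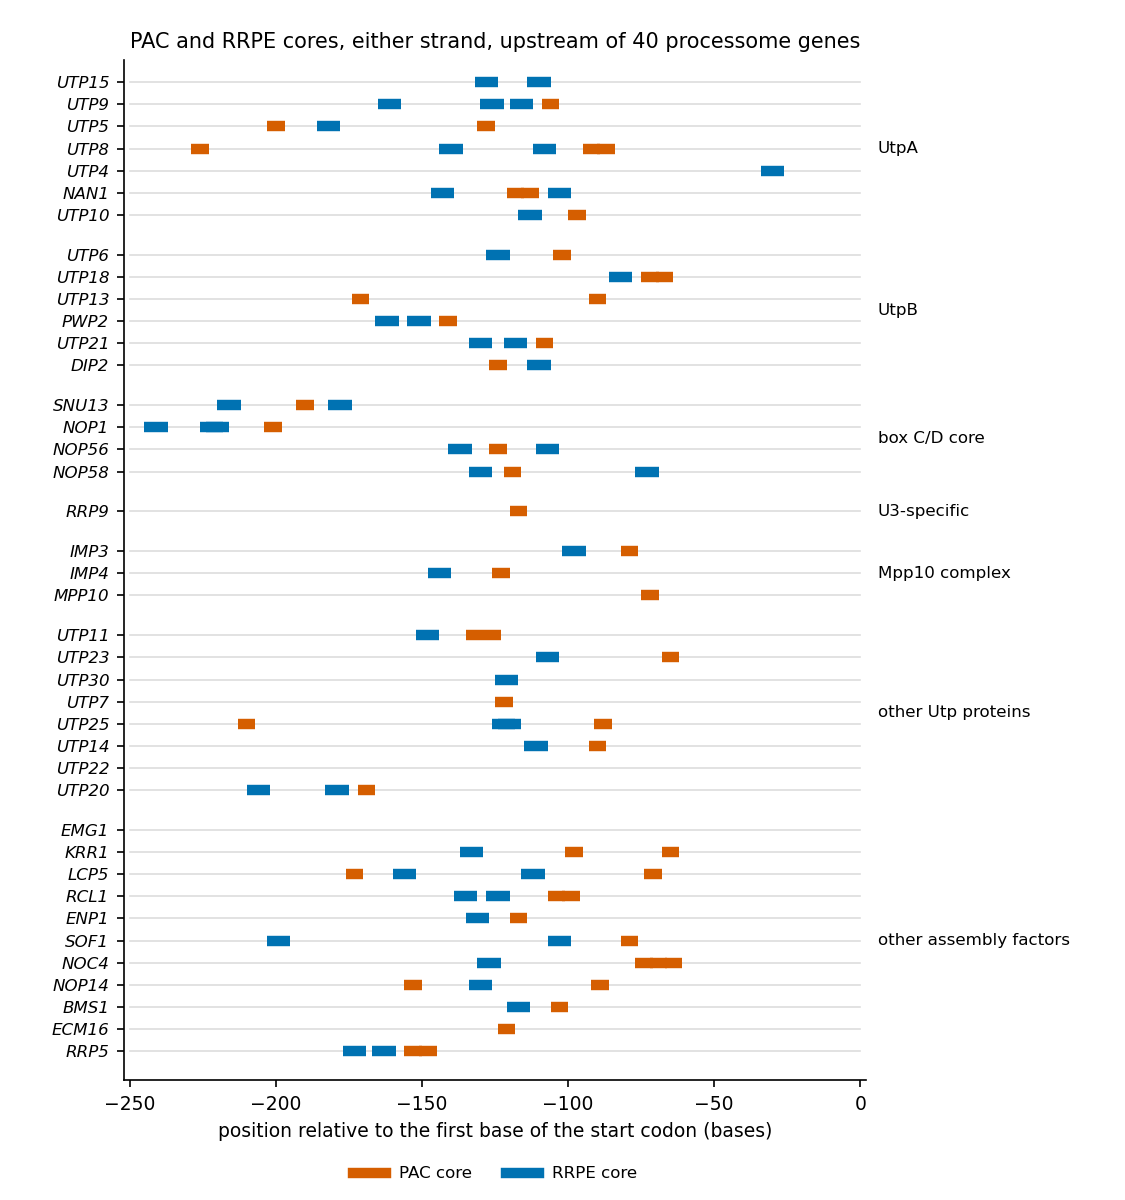
Positions of the PAC core (GATGAG, orange) and the RRPE core (AAAAATTT, blue), on either strand, in the 250 bases before the start codon of each of the 40 genes, grouped by subcomplex. The x axis is the distance in bases from the first base of the start codon. The motifs sit side by side in most rows, with 49 of 50 PAC cores between 60 and 220 bases upstream, and the rows of UTP22 and EMG1 are empty.

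Apart from the box C/D core, most members lay within 2-fold of a common level, and RRP5 lay well above it. The 36 genes had a median of RNA at 75.3 and footprints at 70.2 RPKM, and 35 of them lay within 2-fold of the RNA median, against 44.3% of all analysed genes. For footprints, 33 of 36 lay within 2-fold of their median, against 32.5% of all genes, and 29 lay within 1.5-fold, against 19.5%. From lowest to highest the 36 spanned 7.22-fold in RNA and 5.23-fold in footprints. The fold limits were chosen after the values had been seen, and they are centred on the medians of these 36 genes, which favours them in the comparison. The genes outside the footprint limits were KRR1, EMG1 and RRP5, all above, and RRP5 alone was outside the RNA limits. The counting intervals of UTP10 and KRR1 crossed the upper RNA limit of 150.5 RPKM, and that of UTP30 the lower limit of 37.6 RPKM. RNA lay above that of the median gene for 39 of 40 members (all but UTP30), and footprints for all 40. By definition, as many analysed genes lie above the median as below it in each assay. The 40 genes together took 1.20% of the listed RNA reads and 0.991% of the listed footprint reads.

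**Figure D2:**
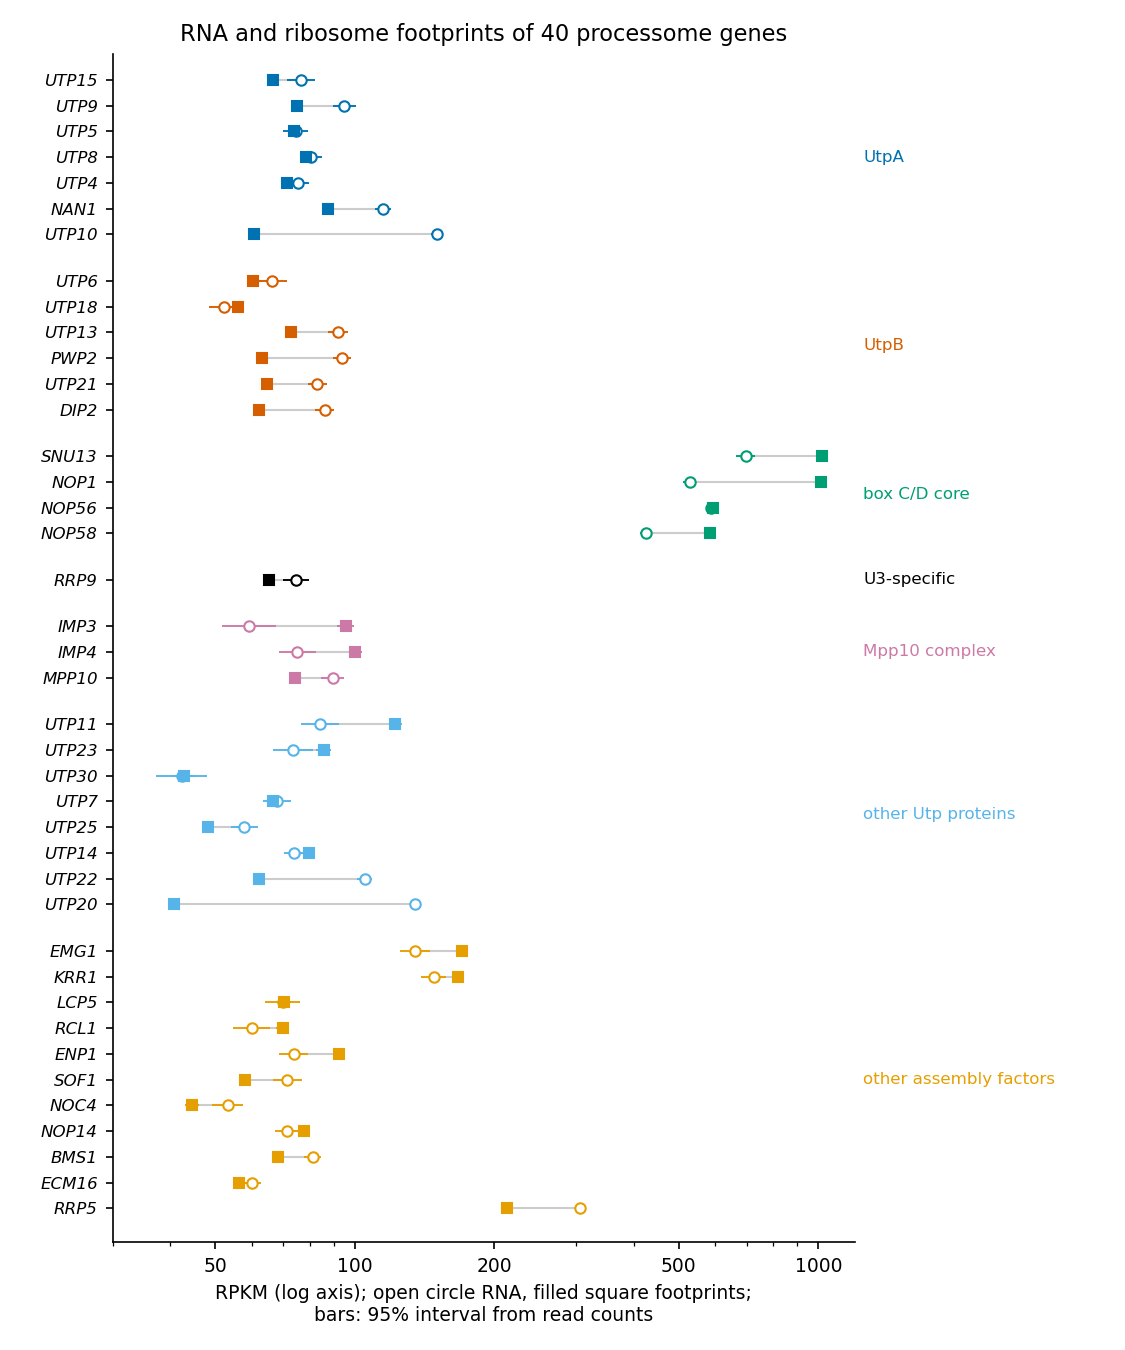
RNA (open circles) and ribosome footprints (filled squares) in RPKM, on a log axis, for the 40 genes by subcomplex and, within it, by coding length. Bars are 95% intervals from the read counts and grey lines join the values of 1 gene. The 4 box C/D core genes sit between 425 and 1019 RPKM, while most others sit between 40 and 150 RPKM, and the longest genes UTP10 and UTP20 have the widest gap between RNA and footprints.

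The UtpA genes had uneven RNA and nearly even footprints. The proteins of this subcomplex, built mostly of beta-propellers and helical repeats, are the first to bind the nascent transcript and are also tied to transcription of the ribosomal DNA. UTP4 (YDR324C) had RNA at 75.3 and footprints at 71.35 RPKM, a density of 0.21 (0.12 to 0.29). UTP5 (YDR398W) had 74.6 and 73.9 RPKM, a density of 0.27 (0.18 to 0.37), and UTP8 (YGR128C) had 80.4 and 78.3 RPKM, a density of 0.25 (0.16 to 0.33). These 3 genes were near alike in both assays. UTP9 (YHR196W) had 94.96 and 75.1 RPKM (-0.05), UTP15 (YMR093W) 76.5 and 66.7 RPKM (0.09), and NAN1 (YPL126W), which encodes Utp17, 115.0 and 87.35 RPKM (-0.11). UTP10 (YJL109C), by far the longest of the subcomplex at 5310 nt (chromosome X, 212000 to 217309, minus strand, a single exon), stood apart with RNA at 150.15 and footprints at 60.6 RPKM. Its density was -1.02 (-1.07 to -0.98), 0.492 times that of the median gene. It had 1.91 times the median RNA of the other 6 UtpA genes but 0.814 times their median footprints. Across the 7 genes RNA ran over a 2.01-fold range and footprints over a 1.44-fold range, from UTP10 to NAN1.

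The UtpB genes also spread less in footprints than in RNA, which rested on the 2 shortest genes. Their products form a second propeller-rich subcomplex, which contacts U3 and the pre-rRNA. PWP2 (YCR057C), which encodes Utp1, had RNA at 93.7 and footprints at 63.1 RPKM, a density of -0.29 (-0.36 to -0.21). DIP2 (YLR129W), which encodes Utp12, had 86.0 and 62.0 RPKM (-0.19). UTP13 (YLR222C) had 91.9 and 72.7 RPKM (-0.05), and UTP21 (YLR409C) 82.95 and 64.7 RPKM (-0.07). The 2 shortest genes had less RNA and higher density. UTP6 (YDR449C) had 66.1 and 60.4 RPKM, a density of 0.15 (0.03 to 0.28), and UTP18 (YJL069C), whose product recruits the helicase Mtr4 of the nuclear exosome, had 52.3 and 55.9 RPKM, a density of 0.38 (0.27 to 0.50). RNA spanned 1.79-fold over the 6 genes and footprints 1.30-fold, from 55.9 to 72.7 RPKM. Counting error was smaller than these differences for most subunits: footprint intervals overlapped in 4 of 15 pairs of UtpB genes and 3 of 21 pairs of UtpA genes.

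The box C/D core genes were the highest of the members in both assays. The 4 proteins are shared by all box C/D snoRNPs, which guide methylation of ribosomal RNA, and Snu13 is also part of the U4 snRNP of the spliceosome. Their median was 7.40 times that of the other 36 genes in RNA and 11.4 times in footprints. NOP1 (YDL014W, chromosome IV, 427364 to 428347, plus strand), the methyltransferase fibrillarin, had RNA at 528 and footprints at 1014 RPKM. Its density of 1.23 (1.18 to 1.27) was the highest of the 40. SNU13 (YEL026W), which binds the kink-turn of the RNA and is the shortest member at 381 nt, had 697 and 1019 RPKM, a density of 0.83 (0.76 to 0.91). NOP56 (YLR197W) and NOP58 (YOR310C), paralogous scaffold proteins, had 586 and 425 RPKM of RNA but 592 and 583 RPKM of footprints. Their densities were 0.30 (0.26 to 0.34) and 0.74 (0.70 to 0.78). The footprint values thus formed 2 levels, with NOP1 and SNU13 near 1000 RPKM and NOP56 and NOP58 lower. RRP9 (YPR137W), the protein that is specific to the U3 snoRNP, stood with the other members and not with the core, at RNA at 74.7 and footprints at 65.4 RPKM, with a density of 0.09 (-0.01 to 0.20).

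The Mpp10 complex held 2 short genes of high density and a longer one near the median gene. MPP10 (YJR002W), the scaffold, had RNA at 89.6 and footprints at 74.1 RPKM, a density of 0.01 (-0.08 to 0.10). IMP3 (YHR148W) and IMP4 (YNL075W), which help U3 pair with the pre-rRNA, had less RNA and more footprints, with 59.2 and 95.55 RPKM for IMP3 and 75.2 and 100.3 RPKM for IMP4. Their densities were 0.97 (0.77 to 1.18) and 0.70 (0.56 to 0.84). IMP3 had the fewest RNA reads of the members, and its interval spans the 2-fold limit. Against the running median of density along coding length, the 3 genes were closer, at 0.38 for IMP3, 0.44 for IMP4 and 0.29 for MPP10.

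Past the 2-fold limits of density lay 1 member above and 2 below. NOP1 was above, where 6.77% of analysed genes lay, and UTP10 and UTP20 were below, where 13.1% lay. UTP20 (YBL004W, chromosome II, 227636 to 235117, plus strand, a single exon) encodes a very large helical-repeat protein and at 7482 nt is the longest member. It had 134.9 RPKM of RNA, 1.79 times the median of the 36 genes, and 40.8 RPKM of footprints, 0.581 times their median and the lowest of all 40. Its density of -1.44 (-1.48 to -1.40) was 0.368 times that of the median gene.

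**Figure D3:**
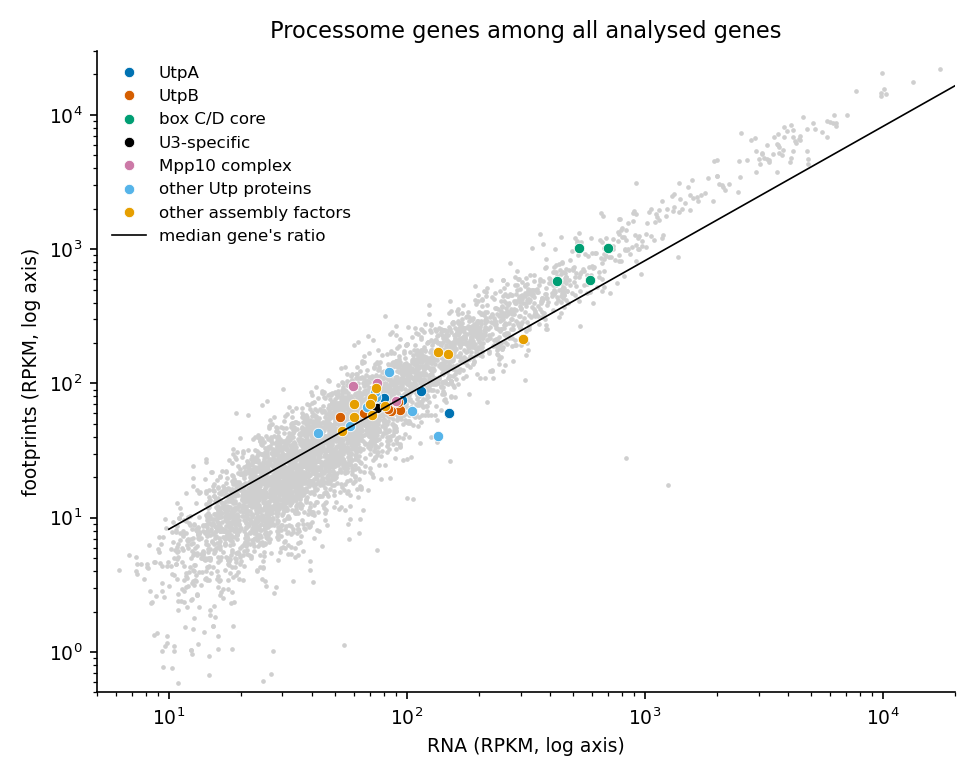
Ribosome footprints against RNA, both in RPKM on log axes, for the 4641 analysed genes (grey) and the 40 members (coloured by subcomplex). The line marks the ratio of the median gene, 0.821, and 23 genes lie outside the axes. Most members form a cloud near 75 RPKM of RNA, RRP5 lies to its right at 306 RPKM, and the box C/D core stands at the upper right. Below the line lie 11 members, of which UTP10 and UTP20 are the farthest from it.

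The other UTP genes, which were placed in none of the subcomplexes above, ran from 40.8 to 122 RPKM in footprints. UTP11 (YKL099C), which encodes a small protein, was the highest with RNA at 84.2 and footprints at 122 RPKM, a density of 0.82 (0.68 to 0.97). UTP23 (YOR004W), a PIN-domain protein, had 73.65 and 85.6 RPKM (0.50), UTP7 (YER082C) 67.9 and 66.75 RPKM (0.26), and UTP14 (YML093W), the activator of the helicase Dhr1, 74.0 and 79.5 RPKM (0.39). UTP22 (YGR090W), a subunit of UtpC, had 105.0 and 62.2 RPKM, a density of -0.47 (-0.53 to -0.41). It resembled UTP10 in having more RNA than most members and fewer footprints. UTP25 (YIL091C), which resembles a helicase, had 57.8 and 48.3 RPKM (0.03). UTP30 (YKR060W), an L1-fold protein that cells can do without, had the lowest RNA of the 40, with RNA at 42.4 and footprints at 42.9 RPKM, a density of 0.30 (0.11 to 0.50).

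Among the 11 other assembly factors, 3 genes were made at a higher level than the rest. RRP5 (YMR229C, chromosome XIII, 725934 to 731123, minus strand) encodes a large RNA-binding protein needed for both ribosomal subunits. It had RNA at 306 and footprints at 213 RPKM, 4.07 and 3.04 times the medians of the 36 genes, and a density of -0.24 (-0.27 to -0.21). KRR1 (YCL059C), a KH-domain protein, had 148 and 167 RPKM (0.46), and EMG1 (YLR186W), a pseudouridine methyltransferase, 134.8 and 170.4 RPKM (0.62). The remaining 8 ran from 53.1 (NOC4) to 81.1 RPKM (BMS1) in RNA and from 44.5 (NOC4) to 92.35 RPKM (ENP1) in footprints. ENP1 (YBR247C), which stays with the particle into the cytoplasm, had 73.9 and 92.35 RPKM (0.61), and LCP5 (YER127W) had 69.85 and 70.5 RPKM (0.30). SOF1 (YLL011W), a propeller protein, had 71.5 and 58.0 RPKM (-0.02), and ECM16 (YMR128W), the DEAH-box helicase Dhr1 that releases U3, had 59.9 and 56.1 RPKM (0.19). The GTPase gene BMS1 (YPL217C) had 81.1 and 68.2 RPKM (0.03), and RCL1 (YOL010W), whose cyclase-like product Bms1 binds, had 59.9 and 69.8 RPKM (0.51). NOP14 (YDL148C) had 71.3 and 77.7 RPKM (0.41), and its partner NOC4 (YPR144C) had 53.1 and 44.5 RPKM (0.03).

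Partners were compared as ratios of levels, and they did not all come nearer to even in the footprints. NOP56 over NOP58 was 1.38 (1.33 to 1.43) in RNA and 1.01 (1.001 to 1.03) in footprints. IMP3 over IMP4 was 0.787 (0.667 to 0.927) and 0.953 (0.905 to 1.003), and BMS1 over RCL1 was 1.355 (1.22 to 1.501) and 0.977 (0.941 to 1.015). These 3 pairs were within 5% of even in footprints. The other 3 pairs were farther from even in footprints than in RNA. NOP14 over NOC4 was 1.34 (1.22 to 1.48) in RNA and 1.75 (1.68 to 1.82) in footprints, and ECM16 over its activator UTP14 was 0.809 (0.754 to 0.869) and 0.706 (0.687 to 0.726). UTP22 over its UtpC partner RRP7, which is not among the 40, was 0.959 (0.882 to 1.044) and 0.667 (0.643 to 0.692).

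Spread over subunits was measured as the SD of log2 RPKM over the genes of a group. In UtpA it was 0.38 for RNA and 0.17 for footprints, and in UtpB 0.33 and 0.13. Without UTP10, UtpA still had the smaller spread in footprints, 0.13 against 0.25 in RNA. Without UTP18, UtpB had 0.20 for RNA and 0.104 for footprints, and without UTP6 and UTP18 the order turned, at 0.0822 for RNA and 0.104 for footprints. The Mpp10 complex had 0.30 and 0.23. The box C/D core went the other way, with 0.30 for RNA and 0.46 for footprints. The 8 other UTP genes had 0.51 and 0.54, and the 11 other assembly factors 0.75 and 0.74, so for these loosely defined groups both assays spread alike. Over all analysed genes footprints spread more widely than RNA, at 2.21 against 1.61. These 2 values are not on an equal footing, since genes were kept at 10 RPM or more of RNA but at any footprint level above 0. The lowest levels were 6.17 RPKM in RNA and 0.05 RPKM in footprints. None of these differences in spread has a replicate check.

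**Figure D4:**
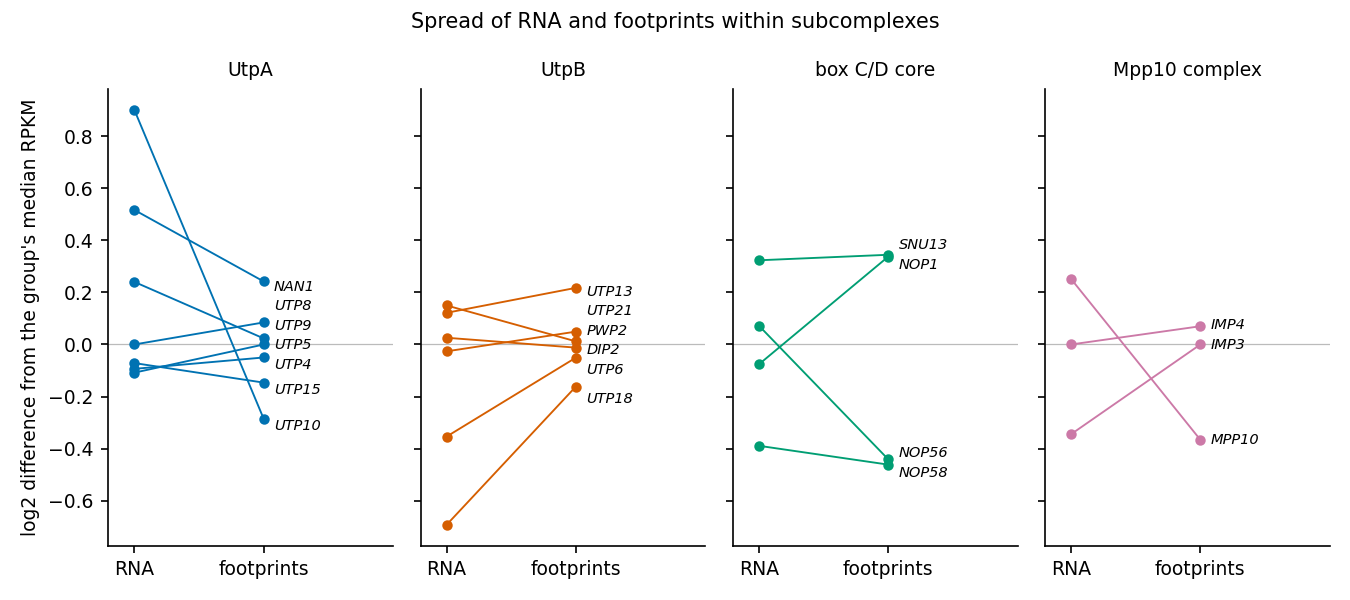
Log2 difference of each gene from the median RPKM of its subcomplex, for RNA (left of each panel) and footprints (right), with lines joining the values of 1 gene. In UtpA and UtpB the lines converge toward the footprint side, with SDs of 0.38 to 0.17 and 0.33 to 0.13, in UtpB through UTP6 and UTP18. In the box C/D core they separate into NOP1 and SNU13 above and NOP56 and NOP58 below.

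Density followed coding length closely among the members. Spearman's rho across the 40 genes was -0.79, and across the 36 outside the box C/D core -0.77. It was -0.62 across all analysed genes. The points of such a correlation are genes measured in the same 2 libraries, and RNA and density share the RNA value. For RNA per length and coding length rho was 0.16 across the 40 members, 0.41 across the 36 and -0.23 across all genes. For footprints it was -0.44, -0.34 and -0.41 in the same order. The 6 members longer than 3000 nt (UTP10, UTP20, UTP22, ECM16, RRP5 and BMS1) had a median of 119.95 RPKM of RNA, against 84.2 for the 9 members of up to 1000 nt, or 75.2 without the core genes NOP1 and SNU13. Their median footprints were 61.4 RPKM, against 122 for the 9 and 100.3 for the 7 without those genes. Among all analysed genes of over 3000 nt the medians were RNA at 46.9 and footprints at 21.2 RPKM.

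For their length the members had high density. Against a running median of density along coding length, 38 of 40 lay above, compared with 49.9% of all genes. The exceptions were UTP20 (-0.29) and UTP30 (-0.03). At the longest lengths the window of 201 genes is cut short by the end of the length order and holds mostly shorter genes. Only 50 analysed genes are longer than UTP10 and 11 longer than UTP20. The median difference was 0.41 for the members. It was 0.51 for UtpA and 0.44 for UtpB, although their medians against the median gene were only 0.09 and -0.06. The highest differences belonged to ECM16 (1.05), UTP14 (1.01), NOP1 (1.01), NOP14 (0.89), BMS1 (0.88) and RRP5 (0.87). On this measure UTP10 was no longer low, at 0.08, close to the running median at its length. More than 2-fold above the running median lay 3 members (ECM16, UTP14 and NOP1), against 2.18% of all genes, and 0 lay more than 2-fold below, against 9.35%. Against the median gene itself, 29 of 40 members lay above, where 50% of genes do by construction, and 8 lay more than 1.5-fold above, against 21.7%. RNA level moved with this result. Of the 2236 analysed genes with RNA in the range of the 36 members (42.4 to 306 RPKM), 61.4% lay above the running median. Their median difference from it was 0.13. Against the median gene itself their median density was 0.22, beside 0.23 for the 40 members and 0.17 for the 36. The part of RNA level in the members' position was not tested.

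**Figure D5:**
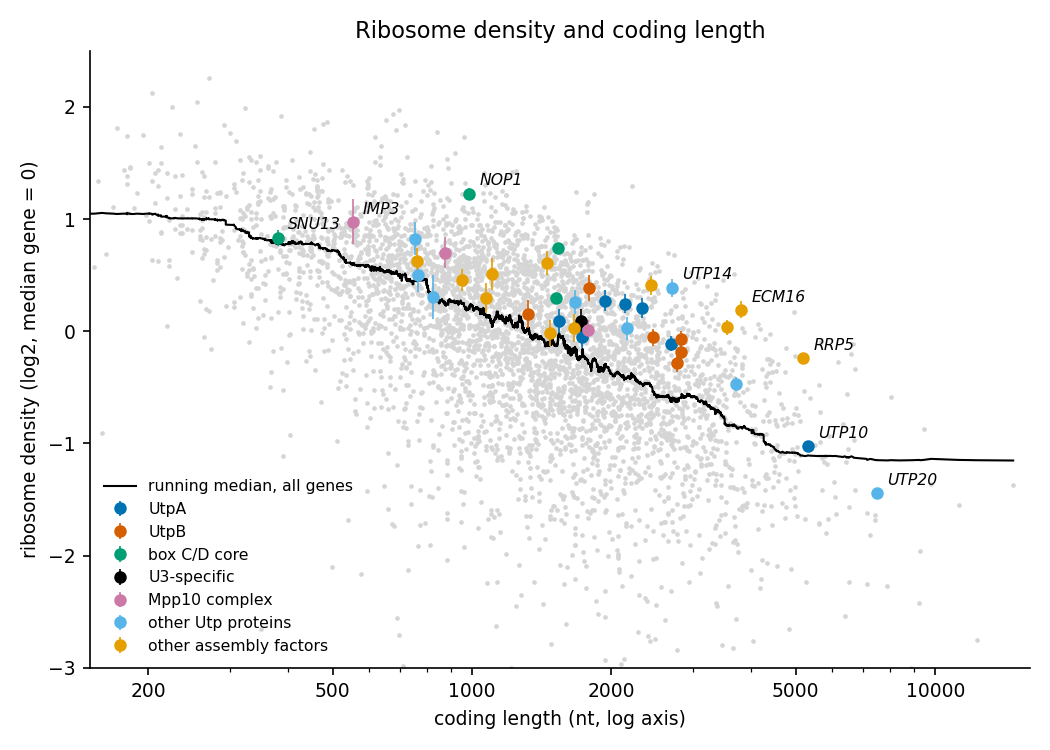
Ribosome density (log2, median gene at 0) against coding length in nt on a log axis for all analysed genes (grey) and the 40 members (coloured by subcomplex, bars are 95% intervals from read counts). The black line is the running median over 201 genes (fewer near either end of the length order), and 55 genes lie outside the axes. Density of the members goes down with length, 38 of 40 lie above the line, and UTP20 is the farthest below it.

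A gene's share of footprint reads depends on its length as well as on its level per length. By reads, RRP5 took 0.120% of all listed footprints, more than NOP1 (0.104%), NOP56 (0.0948%) or NOP58 (0.0948%). UTP10 and UTP20 took 0.0349% and 0.0331%, near SNU13 (0.0369%), whose footprints per length were far higher. The box C/D core together took 0.330% of listed footprints and 0.255% of listed RNA reads, and UtpA took 0.136% and 0.213%.

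Codon use separated the box C/D core from the other members. Codon adaptation, the closeness of a gene's codons to those of 132 ribosomal protein genes (1 is the closest), was 0.456 (NOP56) to 0.696 (SNU13) in the core, between percentiles 95.8 and 98.4 of analysed genes. In the other 36 it ran from 0.201 (UTP30 and UTP23) to 0.314 (RRP5), with a median of 0.230 beside 0.199 over all analysed genes. The 2 ranges did not overlap.

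Other genes of the pathway were taken as a list of 38 further 40S assembly factors, of which 37 were in the table. They had medians of RNA at 69.5 and footprints at 79.6 RPKM, close to the 36 members, and a median density of 0.42. More than 2-fold above the median gene lay 4 of 37, against 6.77% of all analysed genes. They were TSR2, a chaperone of a small subunit protein (1.504), ESF2 (1.23), SAS10, another processome protein (1.23), and FAP7 (1.07). None lay more than 2-fold below, against 13.1% of all analysed genes. The lowest were RRP12 (-0.29) and the helicase gene DHR2 (-0.28), which had 18.8 RPKM of footprints, below each of the 40 members. Of the 37, 31 lay within 2-fold of the members' median footprints, against 32.5% of all analysed genes. Above the running median along length lay 35, against 49.9%. In their promoters 25 of 38 had both motifs, against 4.98% of all nuclear genes. Within 2-fold of the members' median RNA lay 30 of 37, against 44.3% of all analysed genes. Within 1.5-fold of the members' median footprints lay 24 of 37, against 19.5%. Their footprints spanned 10.99-fold from lowest to highest, and the SD of log2 footprint RPKM was 0.75, beside 0.52 for the 36 members. With the longer motif forms 3 of 38 had both, against 1.05% of all nuclear genes. Differences between the lists were not tested.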

How the data were processed

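RNA and footprints were measured in 1 library each. The authors deposited RPKM per gene for both assays and log2 of their ratio (footprint over RNA), per the file headers, with genes kept at 10 RPM or more of RNA and above 0 RPM of footprints. The submitters' processing notes name sacCer3, whose assembly is R64. The aligner, the counting rule and the use of strand are not stated there, nor whether the 8 random bases at the start of each read were used to remove duplicates. Of 4685 identifiers, 4684 matched an R64 coding sequence, and those with a mean RPKM of at least 5 were analysed (4641). No pseudocount was used. The authors' deposited log2 ratio differed from the recomputed one by at most 1.63e-09.

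Reads were recovered by scanning trial depths with 0 to 60 bases left out of the coding length. The bases left out, 50, are those that gave whole reads, and which bases they are is not known. No member overlaps another annotated coding gene. Codon weights had 0.5 added to each count. The running median used 201 genes, and fewer near either end of the length order. The recovery of reads, the running median and the motif search were tested on simulated data. Python 3.11.15, numpy 2.4.6, pandas 2.3.3 and scipy 1.17.1 were used. Promoters and coding sequences come from RefSeq R64.

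The members, subcomplexes, lists and motifs were chosen with earlier results of these data known. All 40 members were named, and the 2 highest and 2 lowest genes in density of other lists; SAS10 and FAP7 were named after their values were seen. Since 1 library per assay allows no test, none was made. Alternatives were centring, filters, a pseudocount, adjustment for length, the fold and, chosen after seeing the data, group membership and motif settings.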

Additional observations from a re-analysis of the deposited data

How the results depend on the processing

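Centring decides the sign of several medians, while differences between groups do not depend on it. Centred on total footprint over total RNA, which moves all genes by -0.36, the median density was -0.13 for the members, -0.27 for UtpA, -0.42 for UtpB, 0.34 for the Mpp10 complex, 0.42 for the box C/D core, -0.081 for the other UTP genes, -0.0639 for the other assembly factors and 0.0574 for the further 40S factors, and 0 members were more than 2-fold above. With genes of a mean RPKM of at least 20 these medians were 0.0443, -0.10, -0.25, 0.52, 0.60, 0.10, 0.12 and 0.24, in the same order. Against the running median along length, members had 0.41, UtpA 0.51, UtpB 0.44, the Mpp10 complex 0.38 and the box C/D core 0.60. On that measure 3 members were more than 2-fold above (2.18% of all genes) and 0 below (9.35%). Against the median gene 11 of 40 members were below, and against the running median only UTP20 and UTP30 were. UTP10 (0.0826) was 1 of several that changed from below to above, and UTP30 changed the other way. At 1.5-fold, 8 members were above the median gene, against 21.7% of all genes. The SD of log2 RNA over UtpA was 0.25 without UTP10, and over UtpB 0.20 without UTP18 and 0.0822 without UTP6 and UTP18, then below the footprint SD of 0.104. With GC required before GATGAG and TG before AAAAATTT, 8 of 40 members had both, against 1.05% of all genes, and with 500 bases searched 31 had both, against 8.46%. A pseudocount of 1 RPKM and no filter moved no group's value beyond its counting interval, or by 0.1 for an SD or rho. No paired analysis was possible because there is 1 library per assay. Counting error is widest for IMP3 and UTP30, with 219 and 242 RNA reads.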

Other observations

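The box H/ACA core, the protein set of the other large snoRNP class, was also high in both assays. Its 4 genes are CBF5, the pseudouridine synthase, and GAR1, NHP2 and NOP10. They had 5.26 times the median RNA of the 36 members outside the box C/D core and 7.32 times their median footprints. CBF5 had RNA at 452 and footprints at 478 RPKM, a density of 0.37, and NHP2 had 340 and 498 RPKM (0.84). GAR1 had 193.55 and 529 RPKM (1.74). NOP10, which is only 177 nt long, had 518 and 1149 RPKM (1.43). The SD of log2 RPKM over the 4 genes was 0.63 for RNA and 0.60 for footprints. All 4 promoters held both GATGAG and AAAAATTT, and none held both longer forms.

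An A at position -3 before the start codon, a base common in yeast start contexts, was found in 29 of 40 members (72.5%), against 60.9% of 6002 nuclear genes.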
